A study of Rattus norvegicus with 6 samples.

Results

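The messenger RNAs of steroid receptors and of androgen-responsive Sertoli cell genes were examined in rat testis. The 8 genes were chosen by symbol: the estrogen receptor genes Esr1, Esr2 and Gper1, the glucocorticoid receptor gene Nr3c1, the mineralocorticoid receptor gene Nr3c2, and Rhox5, Eppin and Shbg, which are known to respond to androgen. They took up 9 of the 35291 rows of the deposited table, because Nr3c1 labels a pair of rows. All RNA came from whole testis of male Sprague-Dawley rats, an outbred strain. The 3 samples of the diabetic group (DM) came from rats fed a high-fat diet and injected once with streptozotocin, a beta cell toxin, at a dose of 35 mg/kg, and tissue was collected 8 weeks later. The 3 samples of the non-diabetic group (ND) came from rats injected with citrate buffer, with tissue also collected at 8 weeks. The diet of the ND rats and the ages of all rats are not given in the sources used here. The labels number the samples within each group without naming the animals, so each was counted as 1 rat. The p-values take these samples as the replicates of each group.

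Steroid hormones cross the cell membrane and bind receptors that sit in the cytoplasm or nucleus with heat shock chaperones, and the bound receptors then attach to DNA and recruit co-activators or co-repressors. Gper1 encodes a receptor of a different kind, a membrane protein coupled to G proteins. In the testis, Leydig cells make testosterone and carry estrogen and glucocorticoid receptors, peritubular cells carry them too, and Sertoli cells answer androgen with genes that serve germ cells. Whole-tissue RNA cannot tell fewer cells of a type from less RNA per cell.

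In the DM testes the receptor genes Esr1 and Nr3c1 had lower means than in the ND testes, by 26.0% for Esr1 and by 21.5% for the summed rows of Nr3c1. Nr3c2, Eppin and Shbg had group means closer together. Rhox5 varied more among the ND rats than between the groups. Gper1 was low and had group ranges that did not overlap, with the DM rats lower, and Esr2 was barely detected. After adjustment over all genes tested, 0 of the 7 rows tested passed a threshold of 0.05, so each of these differences is a value with its error and not a call.

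The androgen targets are shown first with the DNA in front of them. Steroid receptors of the androgen, glucocorticoid and mineralocorticoid type are known to bind a palindrome, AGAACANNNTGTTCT, where N is any base. RefSeq promoter windows, from 250 bases before to 50 bases after a gene's start on build GRCr8, were found for 5 of the 8 genes, in 6 windows. Eppin, which encodes a protease inhibitor of Sertoli cells and epididymis, lay at chr3:173738602-173738901 on the minus strand. Shbg, which encodes the androgen-binding protein that Sertoli cells secrete, lay at chr10:54834852-54835151 on the minus strand. Capitals mark the stretch that best matched the palindrome, read on either strand since it is the same on both.

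Eppin: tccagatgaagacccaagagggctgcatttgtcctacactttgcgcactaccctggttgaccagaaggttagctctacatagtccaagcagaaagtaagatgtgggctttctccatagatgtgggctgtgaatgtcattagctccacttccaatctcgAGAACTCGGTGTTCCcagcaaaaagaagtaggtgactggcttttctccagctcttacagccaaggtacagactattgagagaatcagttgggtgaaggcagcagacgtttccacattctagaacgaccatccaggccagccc

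Shbg: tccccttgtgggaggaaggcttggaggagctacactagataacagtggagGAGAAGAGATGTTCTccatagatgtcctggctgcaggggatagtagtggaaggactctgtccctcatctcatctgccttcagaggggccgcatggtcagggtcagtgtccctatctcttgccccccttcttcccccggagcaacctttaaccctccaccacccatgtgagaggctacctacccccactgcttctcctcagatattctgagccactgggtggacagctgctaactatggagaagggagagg

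The stretch in the Eppin window began 92 bases before the start and matched 10 of the 12 fixed letters, as good a match as 1.87% of the 33469 windows of the table held. The Shbg window reached 7 of 12 letters, which 94.8% of all windows also did. It held 1 copy of a single arm of the palindrome, AGAACA, counted on either strand, which overlaps the capitals, and 20.7% of all windows held at least 1. The windows of Esr1, Esr2 and Nr3c1 reached 7 or 8 letters. For the estrogen receptor palindrome AGGTCANNNTGACCT no window of the 5 genes passed 8 of 12 letters, a match held by 55.5% of all windows. The windows also differed in composition. The pair of Nr3c1 windows held 66.0% and 79.0% G or C, with 31 and 49 CpG pairs, against a median of 51.7% and 7.00 over all windows. They were the windows of these genes with the GC box GGGCGG on either strand, 1 and 3 copies, and 33.1% of all windows held it. Esr1 held 59.7% G or C with 13 CpG pairs, Esr2 54.7% with 17, Shbg 55.7% with 2 and Eppin 49.0% with 5. A match of letters is a description of the DNA and does not show binding.

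The values were FPKM, fragments per kilobase of transcript scaled to the size of the library, as the authors calculated them. They allow levels to be compared between genes, but they give no read counts. The column totals were 461428 to 464969 FPKM in the DM and 453304 to 478211 FPKM in the ND samples, and the relative depth read from the steps of low values lay between 0.893 and 1.09 of the mean. Log2 fold changes are DM over ND on log2(FPKM + 0.1), a scale that understates the change of low genes. They were tested with limma over the 20338 rows with a mean of at least 0.5 FPKM, which kept 7 of the 9 rows, those of 6 genes, and left out Gper1 and Esr2. The summed markers of spermatids ran from 9817 to 11228 FPKM and those of spermatocytes from 1298 to 1488 FPKM over the 6 rats, so the samples carried the germ cell markers of a testis.

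**Figure D1:**
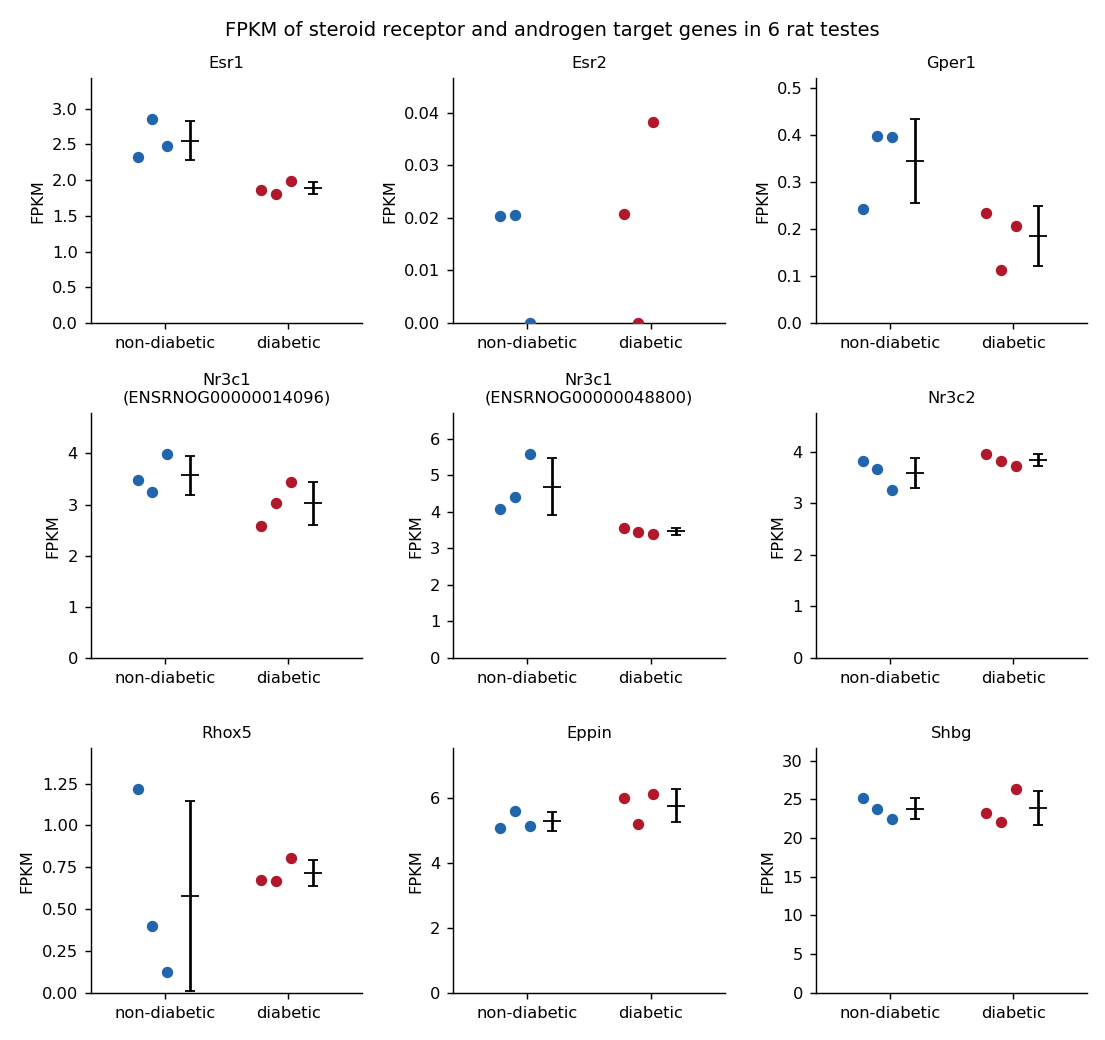
FPKM of each gene in the 3 ND (blue) and 3 DM (red) rats, with the mean and SD of each group as a bar, except for Esr2, which is listed at 0 in a rat of each group. Every vertical axis starts at 0, and the DM points lie below the ND points for Esr1, Gper1 and one row of Nr3c1.

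Shbg stood highest of the 8 genes, at 22.0 to 26.3 FPKM, above 89.6% of the rows of the table. With its rows summed, Nr3c1 followed at 6.15 to 9.57 FPKM, and Eppin came next at 5.09 to 6.12 FPKM. The ranges of these 3 genes over the 6 rats did not overlap, although the gap between Nr3c1 and Eppin was narrow. Taken singly, the Nr3c1 rows had means of 4.08 and 3.30 FPKM over the 6 rats and lay below Eppin. Nr3c2 at 3.71 FPKM and Esr1 at 2.22 FPKM stood in the same region, and from Eppin down to Esr1 each single row's range overlapped that of the next. Rhox5 at a mean of 0.649 FPKM lay apart from Esr1, its range overlapped that of Gper1 at 0.265 FPKM, and Esr2, at 0.0382 FPKM or less, lay below every value of Gper1.

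Esr1 encodes estrogen receptor alpha, the nuclear estrogen receptor of Leydig and peritubular cells. It was at 1.87, 1.81 and 1.98 FPKM in the DM rats and at 2.33, 2.85 and 2.47 FPKM in the ND rats. Every DM rat lay below every ND rat. The means were 1.89 ± 0.0873 and 2.55 ± 0.271 FPKM (SD, n = 3 each), so the gap of the means was larger than either SD. The log2 fold change came to -0.41, at a standard error of 0.14 and a 95% interval from -0.75 to -0.075. The unadjusted p-value from limma was 0.0231 and the adjusted one 0.598, and an exact permutation test gave p = 0.1, the smallest that 3 rats against 3 allow. The unadjusted p-value from limma was 0.0557 without DM rat 1, 0.0624 without DM rat 2 and 0.0847 without ND rat 2. The log2 fold changes of these fits were -0.40, -0.38 and -0.33, and each such fit also has fewer samples.

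The protein-coding gene next to Esr1 on one side, Ccdc170, had lower values in the same rats. It was at 2.24, 2.31 and 2.34 FPKM in the DM and 3.14, 3.14 and 3.40 FPKM in the ND rats, again without overlap. Its log2 fold change came to -0.47, at a standard error of 0.12 (unadjusted p = 0.00490 and adjusted p = 0.433 from limma). Syne1, the neighbour on the other side, had a log2 fold change of -0.020. Of the protein-coding genes with a row in the table used here, the nearest on each side of the 8 genes and those overlapping them made 18 neighbours, of which 14 were tested. Ccdc170 was the 1 of the 14 with an unadjusted p-value below 0.05, a share of 7.14% against 7.46% of all rows tested, so the share is near the background. RefSeq lists Ccdc170 and Esr1 as not overlapping.

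Esr2, the gene of estrogen receptor beta, was listed at 0.0206, 0 and 0.0382 FPKM in the DM rats and at 0.0203, 0.0205 and 0 FPKM in the ND rats. Scaled by the relative depth of each library, these values were 1, 0, 2, 1, 1 and 0 times the smallest of them, with a deviation of at most 1.34% of that step. Whole steps of this kind would come from single fragments, and no difference was detectable at this depth. Gper1 was at 0.234, 0.113 and 0.207 FPKM in the DM and 0.242, 0.397 and 0.394 FPKM in the ND rats. The highest DM and the lowest ND rat differed by little, and the other rats lay further apart. With the filter on low rows left out, the log2 fold change of Gper1 came to -0.65, at a standard error of 0.32 (unadjusted p = 0.0844 and adjusted p = 0.775 from limma). An exact permutation test of Gper1 gave p = 0.1. C12h7orf50, a protein-coding gene that overlaps Gper1 in RefSeq, was not analysed here, and reads of overlapping genes could have been given to either.

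Nr3c1 encodes the glucocorticoid receptor, present in most cell types and known in Leydig, peritubular and Sertoli cells. Its rows carry the identifiers ENSRNOG00000048800 and ENSRNOG00000014096, and reads shared by them could have been given to either. The row ENSRNOG00000048800 was at 3.56, 3.44 and 3.39 FPKM in the DM and 4.09, 4.40 and 5.58 FPKM in the ND rats. The DM rats lay close together and below all ND rats, of which rat 3 was highest. The log2 fold change came to -0.41, at a standard error of 0.14 and a 95% interval from -0.74 to -0.088 (unadjusted p = 0.0196 and adjusted p = 0.577 from limma). The unadjusted p-value was 0.0536 without ND rat 3, where the log2 fold change was -0.28, and 0.0510 without DM rat 3. The other row, ENSRNOG00000014096, was at 2.59, 3.04 and 3.44 FPKM in the DM and 3.48, 3.24 and 3.99 FPKM in the ND rats. Its groups overlapped, with a log2 fold change of -0.24, a standard error of 0.15 and an adjusted p-value from limma of 0.806. It was -0.13 without DM rat 1 and -0.16 without ND rat 3.

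Summed over both rows, Nr3c1 was at 6.15, 6.48 and 6.83 FPKM in the DM and 7.57, 7.65 and 9.57 FPKM in the ND rats. The sum did not overlap between the groups. Its log2 fold change came to -0.34, at a standard error of 0.12 (unadjusted p = 0.0222 and adjusted p = 0.574 from limma over 19575 genes with rows of one symbol summed). Nr3c2, the gene of the mineralocorticoid receptor, which binds aldosterone and glucocorticoids, lay the other way and closer. It was at 3.95, 3.82 and 3.73 FPKM in the DM and 3.82, 3.67 and 3.26 FPKM in the ND rats, with overlapping groups. The log2 fold change of Nr3c2 was 0.097 with a 95% interval from -0.17 to 0.36 (adjusted p = 0.915 from limma), and it was 0.033 without ND rat 3.

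**Figure D2:**
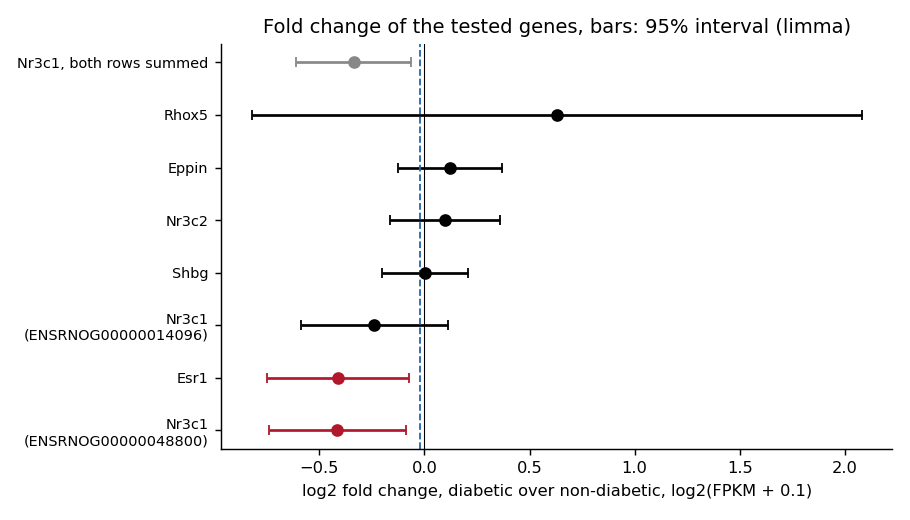
Log2 fold change, DM over ND, of the 7 rows tested and of the summed Nr3c1 rows (grey), as points with the 95% interval from limma as bars; red marks an unadjusted p-value below 0.05. The dashed line is the median of all rows tested, -0.021. The intervals of Esr1 and ENSRNOG00000048800 lie below 0, and that of Rhox5 is the widest.

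Rhox5 encodes a homeobox protein of Sertoli cells that is known for its androgen-driven promoter. It was at 0.677, 0.670 and 0.808 FPKM in the DM rats and at 1.22, 0.398 and 0.124 FPKM in the ND rats. The DM rats lay inside the range of the ND rats, whose values spread widely. The log2 fold change came to 0.63, at a standard error of 0.62 and a 95% interval from -0.82 to 2.08 (adjusted p = 0.894 from limma). Single rats decided it. Without ND rat 1 it was 1.29 with an unadjusted p-value of 0.0294, and without ND rat 3 it was 0.011. Rhox8, its neighbour in the cluster of reproductive homeobox genes and also a Sertoli cell gene, was at 3.29, 3.75 and 5.94 FPKM in the DM and 4.09, 5.08 and 4.34 FPKM in the ND rats. The groups overlapped for Rhox8 as well, with a log2 fold change of -0.095.

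Eppin was at 6.02, 5.20 and 6.12 FPKM in the DM and 5.09, 5.61 and 5.16 FPKM in the ND rats. The groups overlapped, with a log2 fold change of 0.12 and a 95% interval from -0.12 to 0.37 (adjusted p = 0.869 from limma). Epididymal RNA was near absent: the markers Crisp1, Lcn5, Adam7 and Cst11 summed to 0.134 to 0.230 FPKM in the DM and 0.0562 to 0.114 FPKM in the ND rats. Wfdc6a, the nearest gene of the same inhibitor cluster on one side, was at a mean of 19.3 FPKM with a log2 fold change of -0.014. Wfdc2, which overlaps Eppin in RefSeq, was listed at 0 to 0.399 FPKM over the 6 rats.

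Shbg was at 23.3, 22.0 and 26.3 FPKM in the DM and 25.2, 23.8 and 22.4 FPKM in the ND rats. The groups overlapped almost entirely, and the means were 23.9 ± 2.20 and 23.8 ± 1.39 FPKM (SD, n = 3 each). On the log2 scale the fold change of Shbg was 0.0028, with a 95% interval from -0.20 to 0.21 (adjusted p = 0.997 from limma); an exact permutation test of Shbg gave p = 1. Sat2, which overlaps Shbg in RefSeq, was at a mean of 4.51 FPKM with a log2 fold change of -0.099, and the sources do not say whether reads were assigned by strand.

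**Figure D3:**
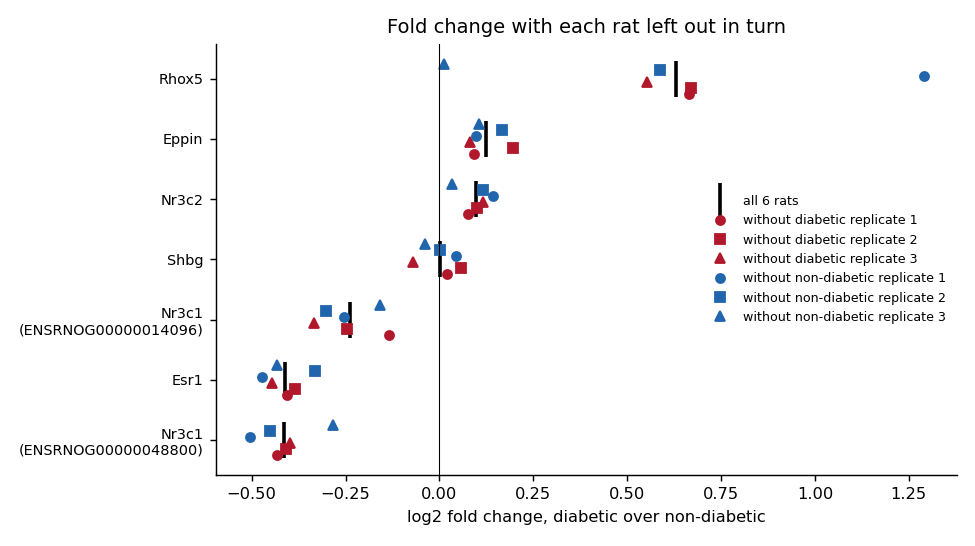
Log2 fold change of each row tested with all 6 rats (black bars) and with 1 rat left out in turn (red, a DM rat left out; blue, an ND rat left out). Esr1 stays between -0.47 and -0.33 and ENSRNOG00000048800 between -0.50 and -0.28, while Rhox5 runs from 0.011 to 1.29.

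Counted together, 3 of the 7 rows tested had a log2 fold change below 0 and 4 above it. Over all 20338 rows 55.6% lay below 0. The median was 0.0028 for the 7 rows against -0.021 over all 20338 rows. An unadjusted p-value below 0.05 was reached by 2 of the 7 rows, Esr1 and ENSRNOG00000048800, both lower in the DM rats. Over all rows tested it was reached by 7.46%, and by 4.99% with lower values in the DM rats. The groups did not overlap for the same 2 rows of the 7, and for Gper1 below the filter. Over all rows tested they did not overlap for 13.0%, and for 8.42% with the DM rats lower. These shares leave out rows below the filter, such as Gper1, for which no share was worked out. By the fold criterion, an unadjusted p-value below 0.05 together with a log2 fold change of 1 or more in size, 0 of the 7 rows were counted, against 1.24% of all rows. With an adjusted p-value below 0.05 from limma the count was 0, against 0.0344% of all rows, and the adjusted values of the 7 rows ran from 0.577 to 0.997. These shares of 7 rows are small numbers and were not tested as a group.

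The row ENSRNOG00000048800 of Nr3c1 had the smallest unadjusted p-value of the 7, and genes with a like pattern over the 6 rats were looked up among 78 other rows of the lists used here. The genomic neighbours were not among these 78. The measure was the root mean square difference of the log2 values after each gene's mean was taken off. Because the row was picked for its group difference, genes lower in the DM rats come out close by construction. The closest of the 78 were Nrip1, which encodes a co-regulator of nuclear receptors, at 0.161, Esr1 at 0.165 and Kit, the gene of a receptor of differentiating spermatogonia and Leydig cells, at 0.171. Ccdc170, the neighbour of Esr1, was closer than these by the same measure, at 0.108. In ND rats 1, 2 and 3 the values without the gene's mean were 0.0250, 0.130 and 0.465 for ENSRNOG00000048800. Those of Nrip1 rose in the same order, at -0.0177, 0.0878 and 0.194. Those of Kit fell, at 0.185, 0.145 and 0.117, and those of Esr1 were highest in rat 2. A shared regulation of these genes was not tested. Nrip1 was at 1.91, 2.16 and 2.17 FPKM in the DM and 2.19, 2.36 and 2.55 FPKM in the ND rats, without overlap but with an adjusted p-value from limma of 0.856. Kit was at 3.78, 3.61 and 3.18 FPKM in the DM and 4.45, 4.33 and 4.24 FPKM in the ND rats (unadjusted p = 0.0314 and adjusted p = 0.635 from limma).

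**Figure D4:**
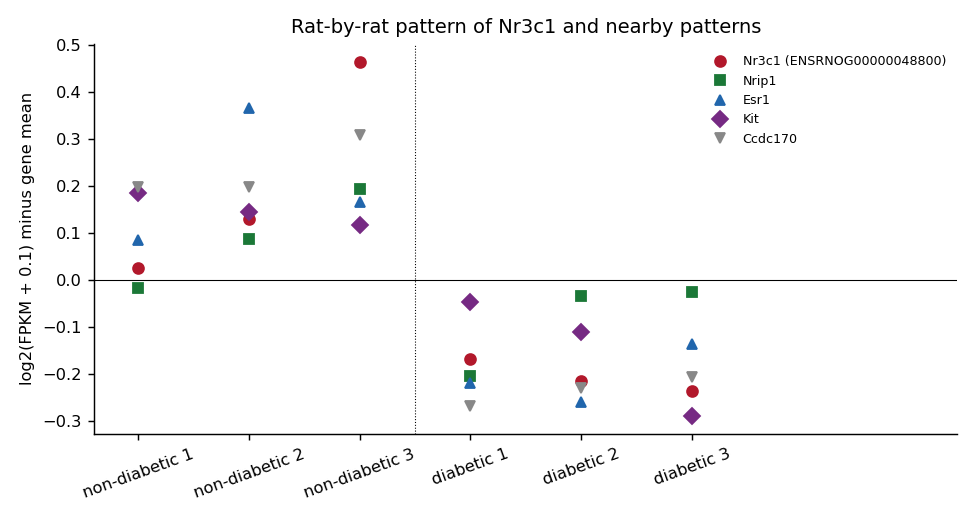
Log2(FPKM + 0.1) minus the gene's mean over the 6 rats, for ENSRNOG00000048800 of Nr3c1, the 3 closest of the 78 rows compared (Nrip1, Esr1 and Kit) and Ccdc170, the neighbour of Esr1, which was not among the 78 and lies closer at 0.108. The DM rats, on the right, lie below 0 for all 5 genes, and ND rat 3 is highest for Nr3c1 at 0.47.

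The machinery that holds and serves steroid receptors showed no called difference. Of 17 chaperone and co-regulator genes, all tested, 0 had an unadjusted p-value below 0.05 in either direction, with log2 fold changes from -0.18 to 0.12 and a median of -0.016. Hsp90aa1, the cytosolic chaperone that keeps empty receptors ready, was at 529 ± 36.9 FPKM in the DM and 534 ± 25.3 FPKM in the ND rats (SD, n = 3 each). Ptges3, the co-chaperone p23, was at 145 and 147 FPKM as means of 3 rats. The smallest adjusted p-value of this list from limma was 0.778.

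Genes known to be induced by glucocorticoids through their receptor gave no call either. Of 12 listed, 11 were tested and 0 had an unadjusted p-value below 0.05. The log2 fold change was below 0 for 7 and above it for 4, with a median of -0.096. Over all rows tested 55.6% lay below 0. Mt2A, a metal-binding metallothionein, was at 195.7 and 196.0 FPKM as means of 3 rats, and Per1, a clock gene, at 19.1 and 19.3 FPKM. Dusp1, a phosphatase that turns off MAP kinases, had the lowest value of the list, -0.38, with an unadjusted p-value of 0.0708 from limma. Fkbp5, the co-chaperone that glucocorticoids induce, stands in both this list and the one above and was at 7.11, 6.55 and 7.97 FPKM in the DM and 8.61, 7.86 and 7.25 FPKM in the ND rats.

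Of the other androgen-responsive Sertoli cell genes, Serpina5, a serine protease inhibitor, was at a mean of 41.4 FPKM in the DM and 41.6 FPKM in the ND rats, and Cldn3, a tight junction protein, at 16.1 and 13.3 FPKM. Tubb3, a tubulin, was at 11.8 and 13.0 FPKM, and Drd4, a dopamine receptor, was listed at 0 in all 6 rats. None of the 3 tested had an unadjusted p-value below 0.05, and their median log2 fold change was -0.0013. For the estrogen pathway 5 of 6 listed symbols were found and 3 reached the filter, 0 with an unadjusted p-value below 0.05. All 3 had log2 fold changes below 0, from -0.39 to -0.24, as did 55.6% of all rows tested. Esrra, an orphan receptor related to estrogen receptors, was at 2.78 and 3.30 FPKM, and Greb1, an estrogen receptor cofactor, at 1.84 and 2.36 FPKM, DM first. Cyp19a1, the aromatase that makes estrogen from androgen, lay below the filter at 0.139 ± 0.0113 and 0.163 ± 0.0111 FPKM (SD, n = 3 each). Its groups did not overlap, and an exact permutation test gave p = 0.1. The share of such rows below the filter was not worked out.

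Markers of the cells that carry these receptors differed among themselves. Of 6 Leydig cell markers tested, 5 had an unadjusted p-value below 0.05, all lower in the DM rats, and the median log2 fold change was -1.20. Cyp17a1, a testosterone pathway enzyme, was the 1 marker with an adjusted p-value below 0.05, 0.0415 from limma, at a log2 fold change of -1.60. Insl3 at -1.62, Star at -1.24, Cyp11a1 at -1.16 and Lhcgr at -0.999 were the others of these 5. Nr5a1, the remaining marker tested, was at -0.016. The 6 markers summed to 30.7 to 58.2 FPKM in the DM and 84.4 to 118.8 FPKM in the ND rats. Esr1 and Nr3c1 were lower in the same rats, and the part of the Leydig cell markers in the lower values of Esr1 and Nr3c1 was not tested.

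Of 8 tested markers listed for Sertoli cells, the cells of Rhox5, Eppin and Shbg, 7 had an unadjusted p-value of 0.05 or more. Inha, an inhibin subunit, was lower at -0.34 (adjusted p = 0.627 from limma). Whole-tissue RNA does not show in which cells Inha was lower. Clu, the highest of them, was at 262 and 245 FPKM, and the 9 markers summed to 322.7 to 341 FPKM in the DM and 276 to 347 FPKM in the ND rats. The 4 peritubular markers, led by Acta2, had 0 with an unadjusted p-value below 0.05 and summed to 70.3 to 76.3 FPKM in the DM and 71.7 to 91.2 FPKM in the ND rats. Of the 4 macrophage markers, Csf1r at -0.80 and Cd68 at -0.98 had unadjusted p-values of 0.00218 and 0.0300 from limma. Cd163 was at -0.23 and Aif1 at 0.29. Aif1, at a mean of 96.2 FPKM, made up most of the list's summed 79.2 to 120 FPKM over the 6 rats. The sum therefore says little of the other macrophage markers. Of the 4 spermatogonial markers, led by Stra8, Kit was lower, at -0.30. The 2 endothelial markers, led by Vwf, the 5 spermatocyte markers, led by Ldhc, and the 6 spermatid markers, led by Prm1, had 0 with an unadjusted p-value below 0.05.

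**Figure D5:**
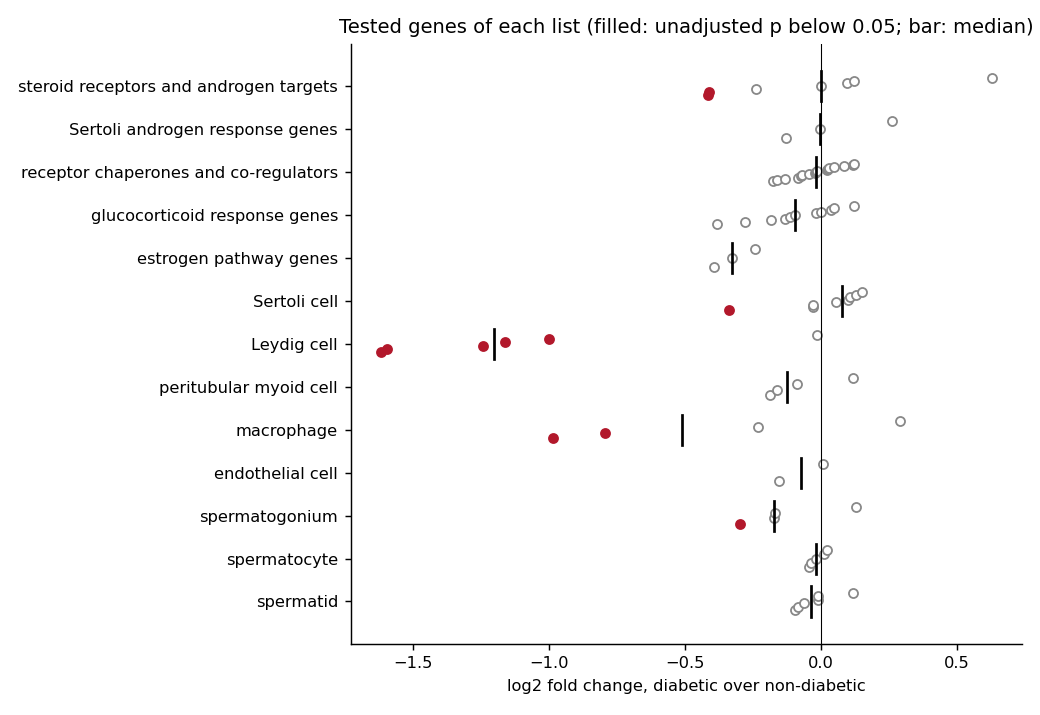
Log2 fold change, DM over ND, of every tested gene of each list (points, filled red where the unadjusted p-value from limma is below 0.05), with the list's median as a bar. The 7 tested rows of the steroid receptors and androgen targets stand at the top with 2 filled points, the lists of chaperones, glucocorticoid and estrogen genes hold 0 filled points, and the Leydig cell list holds 5 to the left of 0.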

How the data were processed

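Testis RNA-Seq profiles of 3 DM and 3 ND rats were analysed, grouped by sample title. The authors extracted total RNA, sequenced paired ends, compared reads with rRNA using BWA, used STAR for alignment and StringTie for transcripts. The deposited table holds FPKM for each gene, calculated by the authors. The labels describe poly-T beads but then name fractions with and without poly(A), so which fraction was sequenced is not settled. Genome build and tool versions are not given in the sources used here, and reads per library are unknown.

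FPKM were taken as log2(FPKM + 0.1). Rows with a mean of at least 0.5 FPKM entered a two-sided linear model in limma 3.58.1 under R 4.3.3 (eBayes with trend), and p-values were adjusted by Benjamini-Hochberg over all 20338 rows. Single values were compared with an exact permutation test, two-sided. The limma fit, and no other step, was tested on simulated data. The genes and lists were chosen with earlier results of these data known. All 8 genes are named. From each list, genes whose unadjusted p-value passed 0.05 are named. So are the 2 highest genes of a pathway list and the highest marker of a cell type. The 3 genes of closest pattern and RefSeq neighbours are named too. A few more were chosen after their values were seen (Dusp1, Fkbp5, Nr5a1, Cyp19a1, Tubb3, Drd4, Cd163). Where a symbol labelled several rows, the highest stood for a list gene. Promoter windows came from RefSeq (GRCr8) and were matched by symbol. Alternatives were pseudocounts of 1 and 0.01, no filter or a mean of at least 1 FPKM, TPM, median-ratio scaling, eBayes without a trend or robust, protein-coding genes, summed symbols, a replicate block and leaving out each rat. Other steroid receptors and the small RNA were not analysed here.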

Additional observations from a re-analysis of the deposited data

How the results depend on the processing

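The number of rows with an adjusted p-value below 0.05 was 0 under each of the 17 alternatives run. The number past the fold criterion was 0, and 0 to 1 with each rat left out, the 1 being Rhox5 without ND replicate 1. The number with an unadjusted p-value below 0.05 was 2; with each rat left out it ran from 1 to 3, and it was 2 under every other alternative. Esr1, both rows of Nr3c1, Nr3c2, Eppin and Rhox5 kept the sign of the log2 fold change under each alternative run for them. Shbg, whose value lies at 0.0028, changed sign without DM replicate 3, to -0.069, and without ND replicate 3, to -0.039; with each rat left out it ran from -0.069 to 0.059. With a mean of at least 1 FPKM, Rhox5 was not tested. With a pseudocount of 1 the log2 fold change of Rhox5 was 0.18, as the construction of the scale makes low genes move less. With the replicate block the unadjusted p-value from limma was 0.0483 for Esr1 and 0.0318 for ENSRNOG00000048800, and the count was 2. The deviations of samples with the same number correlated at 0.106, 0.0153 and 0.0979 across rows, and those with different numbers at -0.126 to 0.0318. DM rats 1 and 3 correlated best with the ND rat of the same number, and DM rat 2 with ND rat 3. Whether the numbers mark a shared batch or pairing was not tested. With 3 rats a group and no read counts, Gper1 and Esr2 are limited by depth, and a difference inside the interval given for a gene was not resolved.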

Other observations

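Within each rat, the balance of the corticosteroid receptors did not overlap between the groups. The summed Nr3c1 rows were 1.56, 1.69 and 1.83 times Nr3c2 in the DM rats and 1.98, 2.08 and 2.93 times Nr3c2 in the ND rats. Esr1 was 0.472, 0.474 and 0.532 times Nr3c2 in the DM and 0.610, 0.777 and 0.758 times in the ND rats. A ratio within a rat does not depend on the scaling of its library. The Sertoli cell pair did not separate: Shbg was 3.87, 4.24 and 4.30 times Eppin in the DM and 4.95, 4.23 and 4.35 times in the ND rats. These ratios were chosen after the values of the single genes were seen, so they restate those values and no p-value is given for them. The pair of Nr3c1 rows kept no fixed ratio, from 0.986 to 1.38 in the DM and 1.17 to 1.40 in the ND rats.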
